A study of Mus musculus with 10 samples.

Results

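Complex I (NADH:ubiquinone oxidoreductase) is the entry point of electrons from NADH into the mitochondrial respiratory chain. It is an L-shaped assembly with a matrix arm that oxidises NADH and passes the electrons through flavin and iron-sulfur clusters to ubiquinone, and a membrane arm that pumps protons. The 35 genes described here are nuclear-encoded structural subunits of this complex, and they were picked by name, with Ndufa4 left out because it is a complex IV protein. All 35 were found among the 45707 rows of the table, and all 35 passed the filter on low values, as did 14301 genes in all.

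Jejunum was collected from 5 Vil-Cre and 5 Vil-Cre:NDI1 mice, with 1 RNA-seq library per mouse. All 10 were males of 8 to 12 weeks that carried the Villin-Cre transgene, which is active in intestinal epithelial cells. The study used littermates of both genotypes, and which of these mice share a litter is not given. The Vil-Cre:NDI1 mice also carried NDI1 at the ROSA26 locus behind a stop cassette that Cre removes, so the controls share Cre but not NDI1. NDI1 is the NADH dehydrogenase of Saccharomyces cerevisiae, a single protein that oxidises NADH and reduces ubiquinone as complex I does, but without pumping protons. Mice were fasted for 16 to 18 h, given water by gavage and sampled 1 h later, and whole flushed jejunum was used, so the libraries also hold RNA of cells in which Villin-Cre is not active. The study asked whether NDI1 changes the transcriptome, and for complex I subunits that question is whether expression of the yeast enzyme in the epithelium goes with a change in the genes for the mouse enzyme.

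Values are normalized counts, that is, reads per gene divided by 1 size factor per library. Depth was 10145705 to 12371530 reads on genes in a library. The 35 subunit genes together took 28376 to 38459 reads, from 0.256% of a library (Vil-Cre:NDI1 4) to 0.322% (Vil-Cre:NDI1 3). NDI1 had 1002, 1505, 2659, 1423 and 1287 reads in the 5 Vil-Cre:NDI1 libraries, 1 read in Vil-Cre 3 and 0 in the other 4 controls, where a count of 0 allows up to 3 reads. All 11 enterocyte markers had reads in every library, with summed normalized counts of 314655 to 621500.

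Complex I is put together from intermediates called modules. The 35 genes comprise 11 of the N module, which binds and oxidises NADH, 4 of the Q module, which reduces ubiquinone, and 4, 6, 5 and 5 of the membrane-arm modules ND1, ND2, ND4 and ND5. Sources differ on where Ndufa6 and Ndufa9 belong. Ndufab1 is counted in the N module alone, although Ndufb9, which also holds it in complex I, is of the ND5 module. Core subunits of the matrix arm, which bacteria also have, are Ndufv1, Ndufv2, Ndufs1, Ndufs3, Ndufs7 and Ndufs8 among these genes, and the rest encode accessory subunits. The core of the membrane arm comes from 7 genes of mitochondrial DNA. The 35 nuclear genes lie on 15 chromosomes in GRCm38, and Ndufa1 and Ndufb11 are on X.

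The subunit genes were expressed at high but unequal levels. Per kilobase of annotated exon, the mean over 10 mice ran from 77.0 ± 7.02 normalized counts per kb (SD, n = 10) for Ndufb2 to 1979 ± 367 (SD, n = 10) for Ndufa1, a 25.7-fold range, with a median of 628. The median over all genes tested was 44.5 per kb. All 35 genes were above it, and 23 were above the 90th percentile of genes tested. Ndufa1, which encodes a small membrane-arm subunit needed for assembly, was followed by Ndufb9 at 1489 ± 144 per kb and Ndufb11 at 1472 ± 100. Ndufb9 encodes a protein of the LYR family and Ndufb11 an X-linked membrane-arm subunit, and their levels differed by less than their spread. At the low end stood Ndufb2, Ndufab1 at 100.9 ± 11.5 per kb and Ndufb5 at 155 ± 16.8.

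The order depends on which length is used, because the annotated exons of some genes sum to far more than 1 transcript, as in Ndufb5 with 4995 bases of exon and a principal transcript of 1079. When the length of the principal transcript was used, Ndufb5 rose from rank 33 to rank 24 with 720 normalized counts per kb, Ndufb7 from rank 30 to rank 11 with 1349, and Ndufa6 led with 2349. With this length the range was 23.7-fold, the median 952 per kb and 27 of the 35 genes were above the 90th percentile. Ndufb2 (99.1 per kb) and Ndufab1 (199.7 per kb) stayed lowest with either length. Their principal transcripts, of 4371 and 3479 bases, are also their longest annotated ones, so their place depends on these lengths. By mean normalized count, with no length, Ndufab1 had rank 26 (694.6) and Ndufb2 rank 34 (433.3), and Ndufb4 was lowest (345.1). Ndufab1 encodes the mitochondrial acyl carrier protein, which also serves fatty acid synthesis and is held in complex I by the LYR proteins Ndufa6 and Ndufb9. The modules did not separate by level, since their medians per kb of principal transcript lay between 709 (N) and 1349 (ND5) while genes within the ND5 module ran from 99.1 to 2181.

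**Figure D1:**
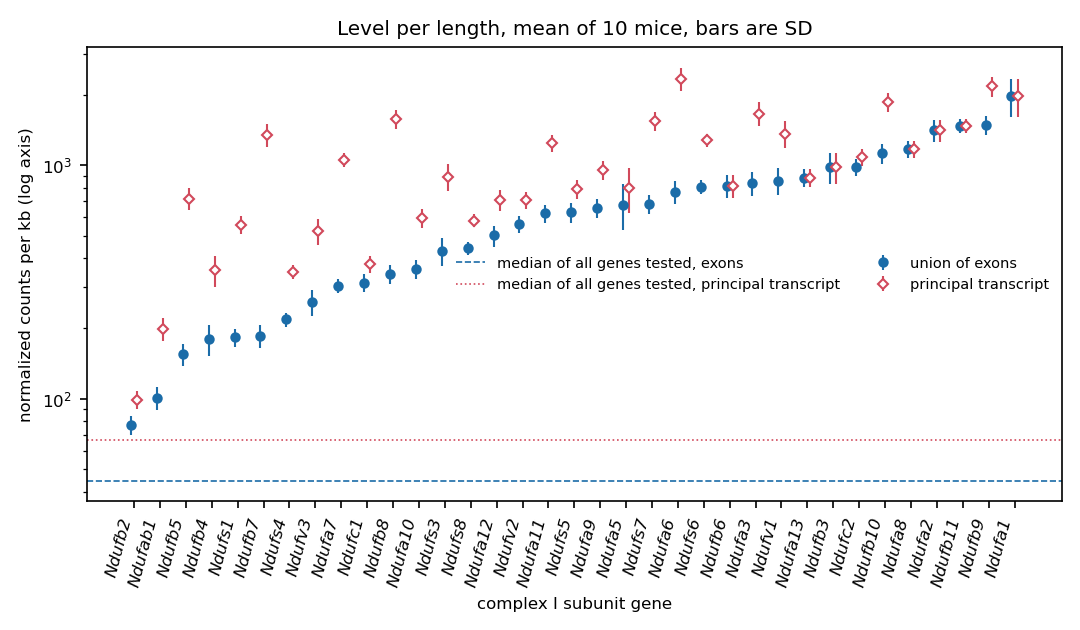
Mean normalized counts per kb over 10 mice (log axis, bars are SD) for the 35 complex I subunit genes, per kb of all annotated exons (filled circles) and of the principal transcript (open diamonds). Every gene lies above the median of all genes tested (lines at 44.5 and 66.8 per kb), and Ndufb2 and Ndufab1 are lowest with either length.

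Per kb of principal transcript, the nuclear genes of complex I had a lower median than those of the other complexes of oxidative phosphorylation. Their median of 952 compares with 1995 for the 4 genes of complex II, 2430 for 9 genes of complex III, 4419 for 11 genes of complex IV and 3029 for 15 genes of complex V. All ranges overlap that of complex I, 99.1 to 2349. They were 641.1 to 2443 (II), 1556 to 3681 (III), 1988 to 9764 (IV) and 345.1 to 10939 (V). The 7 mitochondrially encoded complex I genes had a median of 20703 per kb and ran from 13121 to 42499, so the lowest of them was above the highest nuclear gene. Assembly factors of complex I, which help to build it but are not in the finished enzyme, had a median of 62.8 per kb over the 15 that were tested. These are descriptions of levels, with no test.

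Between genotypes, none of the 35 genes passed the test. The log2 fold changes of Vil-Cre:NDI1 against Vil-Cre ran from -0.10 (Ndufb4) to 0.20 (Ndufa10), or 0.932-fold to 1.15-fold, and 0 of 35 had an adjusted p under 0.05 (limma, adjusted p from 0.998 to 1). Over all genes tested 0.00699% passed, which is NDI1 itself. At an unadjusted p under 0.05 there were 2 of the 35 genes, Ndufa10 and Ndufa9, against 4.24% of all genes. With a two-sided exact permutation test for each gene, 3 of the 35 had p under 0.05, against 4.46% of all genes, and in none of the 35 did the groups of 5 mice lie apart, as they did in 0.699% of all genes. Count tests on the reads also called 0 of the 35 genes. The smallest adjusted p of the 35 was 0.997 with edgeR's quasi-likelihood test and 0.316 with DESeq2. At an adjusted p under 0.05, edgeR called 0.00699% and DESeq2 0.168% of all genes. At an unadjusted p under 0.05, edgeR gave 1 and DESeq2 2 of the 35 genes. The share of all genes at that unadjusted threshold was not taken for these 2 tests, so these counts cannot be read as many or few.

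The intervals limit how large a difference could have been missed. For each of the 35 genes the 95% interval of the log2 fold change from limma lay within 1.5-fold in either direction, as it did for 53.5% of all genes tested. The lowest limit was -0.40 (Ndufb4, 0.758-fold) and the highest 0.58 (Ndufa5, 1.49-fold). The limit of 1.5-fold was chosen after the values had been seen. In bulk tissue fewer cells of a type and less RNA per cell cannot be told apart.

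**Figure D2:**
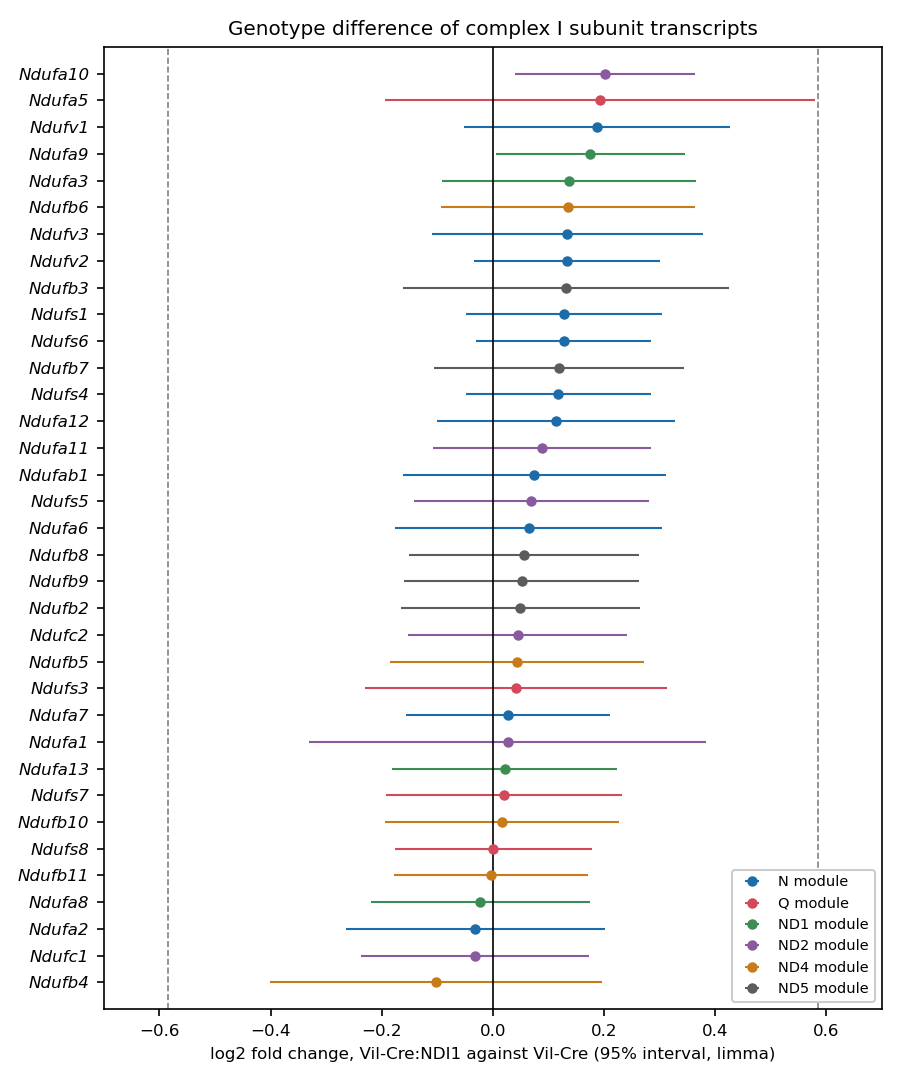
Log2 fold change of each complex I subunit gene in Vil-Cre:NDI1 against Vil-Cre jejunum (5 mice each), with the 95% interval from limma as a bar and the assembly module as colour. All 35 intervals lie between the dashed lines, which mark 1.5-fold lower and higher, and those of Ndufa10 and Ndufa9 alone lie above 0.

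Of the 35 genes, 30 had a log2 fold change above 0, against 51.2% of all genes tested, and their median was 0.06 where that of all genes was 0.01. That count changed with the scaling and with the mice used. When all libraries were scaled to equal totals, 18 of 35 were higher, beside 36.2% of all genes. The median was then 0.0015 for the 35 genes and -0.0569 for all genes. Leaving out Vil-Cre 5 or Vil-Cre:NDI1 2 gave 25 of 35, with medians of 0.05 and 0.04. Leaving out Vil-Cre 3 or Vil-Cre:NDI1 4 gave 33 and 34, with medians of 0.11 and 0.12. With these mice left out, 50.3% to 51% of all genes were higher. Cell type markers differed in direction. All 11 enterocyte markers had a log2 fold change above 0, with a median of 0.24, 0 of 11 passed the limma test and 0 were at an unadjusted p under 0.05, and their summed normalized counts were 314655 to 532688 in Vil-Cre and 475661 to 621500 in Vil-Cre:NDI1 mice. Without Vil-Cre 5, 10 of 11 were higher and their median was 0.12. Goblet cell markers (0 of 6 higher, median -0.21), tuft cell markers (0 of 5, median -0.45) and hepatocyte markers (0 of 5, median -1.41) had values below 0 throughout, again with 0 past the test, and with 0, 1 and 4 genes at an unadjusted p under 0.05. Summed hepatocyte markers were at 72.8 to 1145 normalized counts in Vil-Cre and 61.95 to 100.7 in Vil-Cre:NDI1 mice, and 1 of them, Fgb, was at 0 in some libraries. Of the other cell types checked, markers were higher in 1 of 6 for Paneth cells, 3 of 6 for enteroendocrine cells, 4 of 6 for stem and cycling cells, 1 of 6 for smooth muscle, 0 of 4 for B and plasma cells, 1 of 6 for T cells, 2 of 4 for adipocytes, 3 of 4 for endothelium and 2 of 4 for neurons and glia, with 0 past the test. Among these other lists, endothelial markers had 2 of 4 genes at an unadjusted p under 0.05 and each of the rest 0, beside 4.24% of all genes. The part of the marker lists in the count of 30 was not tested.

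The flavoprotein end of the enzyme showed some of the higher values. Ndufv1 (GRCm38 chromosome 19, 4007384 to 4012806), which binds NADH and the flavin that takes its electrons, was at 2423, 2018, 2163, 2230 and 1758 normalized counts in Vil-Cre mice 1 to 5 and at 2763, 2392, 2514, 1962 and 2434 in Vil-Cre:NDI1 mice 1 to 5. The 2 lowest values were 1 mouse of each genotype, Vil-Cre 5 and Vil-Cre:NDI1 4, and the groups overlap. Its log2 fold change was 0.19 (standard error 0.11, limma adjusted p = 0.998, exact permutation p = 0.135), and 0.12 without Vil-Cre 5. Ndufv2, which carries an iron-sulfur cluster beside it, was at 1176, 1118, 1213, 1151 and 1072 in Vil-Cre and at 1202, 1338, 1402, 1151 and 1206 in Vil-Cre:NDI1 mice. The lowest Vil-Cre:NDI1 mouse matched the middle of the controls, and the difference of 0.13 on the log2 scale (interval -0.03 to 0.30, exact permutation p = 0.0714) did not pass.

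Ndufs1, the largest core subunit, which carries further iron-sulfur clusters of the N module, had 1448, 1466, 1439, 1354 and 1366 normalized counts in Vil-Cre mice and 1655, 1667, 1663, 1360 and 1411 in Vil-Cre:NDI1 mice. Vil-Cre:NDI1 mice 1 to 3 lay above every control, and mice 4 and 5 lay among them. The log2 fold change was 0.13 (interval -0.05 to 0.30, exact permutation p = 0.135). Ndufs6 (chromosome 13, 73319838 to 73328542), a zinc-binding accessory subunit at the joint of the N and Q modules, was the third gene under 0.05 in the exact test. It was at 700.8, 673, 778.4, 679.5 and 642.9 in Vil-Cre mice and at 768.5, 764.4, 765.9, 729.6 and 759.5 in Vil-Cre:NDI1 mice. Apart from Vil-Cre 3, every control was below every Vil-Cre:NDI1 mouse, and the log2 fold change was 0.13 (standard error 0.07, limma adjusted p = 0.998, exact permutation p = 0.0476). Without Vil-Cre 3 it was 0.17. An exon of Mrpl36 overlaps Ndufs6 on the other strand, and whether reads were counted by strand is not given in the sources used here.

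Core genes of the Q module had differences nearer to 0. Ndufs3, a core subunit with no cluster, was at 785.9, 922.5, 1073, 878.6 and 927.5 in Vil-Cre and at 1045, 1097, 1045, 764.8 and 799.4 in Vil-Cre:NDI1 mice. Ndufs7, which holds the last iron-sulfur cluster before ubiquinone, was at 1140, 1172, 1333, 1182 and 1014 against 1211, 1271, 1236, 976.4 and 1233. Ndufs8, which also carries clusters of this chain, was at 596.2, 552.6, 618.1, 514.6 and 569.1 against 628.3, 557.6, 590.6, 535.7 and 540. In all 3 genes the groups overlapped over most of their range. The log2 fold changes were 0.04 for Ndufs3 (interval -0.23 to 0.31), 0.02 for Ndufs7 (interval -0.19 to 0.23) and 0.0010 for Ndufs8 (interval -0.18 to 0.18), and each of the 3 was below 0 with libraries rescaled to equal totals.

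Ndufa10 (chromosome 1, 92439010 to 92473860) had the highest fold change of the 35 genes. It encodes an accessory subunit of the ND2 module related to nucleoside kinases. Its normalized counts were 1215, 1043, 1089, 1097 and 1129 in Vil-Cre mice and 1326, 1407, 1282, 1209 and 1188 in Vil-Cre:NDI1 mice. The group means were 1114 ± 63.9 and 1282 ± 88.9 (SD, n = 5 each), and the groups overlapped only through Vil-Cre 1, which was above Vil-Cre:NDI1 4 and 5. The log2 fold change was 0.20 (standard error 0.07, limma p = 0.0194, adjusted p = 0.998, exact permutation p = 0.0238). Over the settings tried it ran from 0.14 to 0.23, and its adjusted p from limma, edgeR or DESeq2 from 0.316 to 1.

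Ndufa9 (chromosome 6, 126821721 to 126849136), a nucleotide-binding subunit at the hinge of the arms, came next among the genes with small exact p. It was at 1320, 1268, 1387, 1336 and 1151 in Vil-Cre and at 1504, 1450, 1598, 1416 and 1330 in Vil-Cre:NDI1 mice. Vil-Cre:NDI1 5 was the single mouse of its group inside the control range. The log2 fold change was 0.18 (standard error 0.08, limma p = 0.0435, adjusted p = 0.998, exact permutation p = 0.0238), and over the settings it ran from 0.11 to 0.21.

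Ndufa5, an accessory subunit of the Q module, combined a fold change of 0.19 with the largest spread of the 35 genes, an SD of 0.31 on the log2 scale over 10 mice. It was at 600.9, 648.9, 950.7, 546 and 532.2 in Vil-Cre and at 686.2, 826.4, 901.5, 537.6 and 766.5 in Vil-Cre:NDI1 mice. A control, Vil-Cre 3, was highest of all 10 and Vil-Cre:NDI1 4 was second lowest, and the exact permutation p was 0.333. The fold change was 0.336 on the log2 scale without Vil-Cre 3 and 0.304 without Vil-Cre:NDI1 4, but 0.118 without Vil-Cre:NDI1 3 and 0.126 without Vil-Cre 5. Ndufa3, a small subunit of the ND1 module, was at 838.2, 828.4, 971.8, 711.8 and 739.1 against 812.6, 1009, 895.7, 798.1 and 973.1. Its log2 fold change was 0.14 (interval -0.09 to 0.37, exact permutation p = 0.23), and 0.09 without Vil-Cre 4.

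At the other end of the order, 5 genes had a log2 fold change below 0, and none of them was far below. Ndufc1, a small subunit of the ND2 module, was at 435.5, 467.3, 469.9, 495.4 and 503.1 in Vil-Cre and at 429.3, 492.9, 532.6, 398.6 and 474.2 in Vil-Cre:NDI1 mice (log2 fold change -0.03, interval -0.24 to 0.17). Ndufa2, a thioredoxin-fold subunit of the N module, was at 813, 817.5, 977.8, 739.1 and 744.9 against 815.5, 852.8, 827.9, 644.4 and 863.9 (log2 fold change -0.03, interval -0.27 to 0.20). Ndufa8, a cysteine-rich subunit on the intermembrane-space side, was at 1012, 1101, 1094, 988.8 and 891.6 against 1049, 1055, 1096, 867.7 and 944.9 (log2 fold change -0.02, interval -0.22 to 0.18). Ndufb11 was at 1298, 1365, 1392, 1411 and 1220 against 1463, 1339, 1398, 1165 and 1313 (log2 fold change -0.0033, interval -0.18 to 0.17). In each of these 4 genes the lowest mouse was Vil-Cre:NDI1 4, and without it the differences were above 0, at 0.02, 0.04, 0.03 and 0.04. The fifth gene, Ndufb4, is described with its copy.

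The genes at the ends of the level range did not pass the test either. Ndufa1 was at 780.3, 746.3, 1125, 809.9 and 651.7 in Vil-Cre and at 894.9, 912, 927.6, 580.7 and 861.6 in Vil-Cre:NDI1 mice, a log2 fold change of 0.03 (interval -0.33 to 0.38). Its highest mouse was a control and its lowest a Vil-Cre:NDI1 mouse, 1.94-fold apart, the widest ratio between mice among the 35 genes. Ndufb9 was at 1504, 1601, 1700, 1374 and 1358 against 1663, 1698, 1626, 1298 and 1533 (log2 fold change 0.05, interval -0.16 to 0.26). For the low genes, Ndufb2 was at 459.7, 408.2, 438.8, 458 and 365.2 against 419.5, 461, 499.6, 387.8 and 435.5 (log2 fold change 0.05, interval -0.17 to 0.26), and Ndufb5 at 756.9, 784.6, 882.6, 709.8 and 687.6 against 843, 830.9, 901.5, 690.4 and 682 (log2 fold change 0.04, interval -0.19 to 0.27). In each of these 4 genes the groups overlap, and the difference was below 0 with libraries rescaled to equal totals.

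Among the 14 genes whose values by mouse are not listed, log2 fold changes ran from 0.02 (Ndufb10) to 0.135 (Ndufb6), exact permutation p from 0.0794 (Ndufs4) to 0.873 (Ndufb10), and the highest mouse was 1.21 to 1.57 times the lowest. Ndufs4, whose loss in mice gives a Leigh-like disease, averaged 569 ± 41.1 normalized counts in Vil-Cre mice against 617 ± 25 in Vil-Cre:NDI1 mice (SD, n = 5 each), with an exact permutation p of 0.0794.

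The test was per gene, and no module was tested as a whole. By module, 10 of 11 genes were higher in the N module (median log2 fold change 0.12), 4 of 4 in Q (0.03), 3 of 4 in ND1 (0.08), 5 of 6 in ND2 (0.06), 3 of 5 in ND4 (0.02) and 5 of 5 in ND5 (0.06), beside the 51.2% of all genes, and 0 passed the test in any module. Rescaled to equal totals, the counts were 9 of 11, 1 of 4, 2 of 4, 3 of 6, 1 of 5 and 2 of 5. In the other parts of the respiratory chain, log2 fold changes above 0 were found for 7 of 7 mitochondrially encoded complex I genes (median 0.10), 4 of 4 genes of complex II (0.13), 9 of 9 of complex III (0.08), 11 of 11 of complex IV (0.09) and 13 of 15 of complex V (0.08), with 0 past the limma test in each and 0 at an unadjusted p under 0.05. Of the assembly factors 11 of 15 were higher (0.08), and of 9 transcriptional regulators of respiratory genes 3 were (-0.03), also with 0 past the test. Rescaled to equal totals, the counts were 7 of 7 (median 0.03), 4 of 4 (0.07), 8 of 9 (0.02), 7 of 11 (0.03), 9 of 15 (0.02), 10 of 15 (0.02) and 3 of 9 (-0.09), beside 36.2% of all genes.

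Mice differed from each other more than the genotypes did, and the subunit genes moved together from mouse to mouse. For each mouse the deviation of each gene from its own 10-mouse mean was taken on the log2 scale. The median over the 35 genes was -0.04, -0.0046, 0.15, -0.08 and -0.17 in Vil-Cre mice 1 to 5 and 0.08, 0.09, 0.12, -0.19 and 0.07 in Vil-Cre:NDI1 mice 1 to 5. Vil-Cre 3 was the highest of all and Vil-Cre:NDI1 4 the lowest, each against the direction of its group. The genotype means of these medians were -0.03 ± 0.12 and 0.03 ± 0.13 (SD, n = 5 each), so their difference was smaller than the spread between mice of 1 genotype.

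The same is seen gene by gene. In Vil-Cre 3, 30 of 35 genes were above their own mean, in Vil-Cre:NDI1 1, 2 and 3 it was 31, 32 and 33, and in Vil-Cre:NDI1 5 it was 24. In Vil-Cre:NDI1 4 only 4 of 35 were above, as many as in Vil-Cre 5, and in Vil-Cre 1, 4 and 2 it was 6, 5 and 14. These values use the size factors, and as a share of all reads on genes the order changed in part. Vil-Cre 5 was then at 0.2845%, beside 0.2876%, 0.2853% and 0.2769% in Vil-Cre 1, 2 and 4. Vil-Cre:NDI1 5 was at 0.2751%, below every control. Vil-Cre:NDI1 4 stayed lowest (0.2555%), and Vil-Cre 3 (0.3163%) was above every mouse but Vil-Cre:NDI1 3 (0.3216%).

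**Figure D3:**
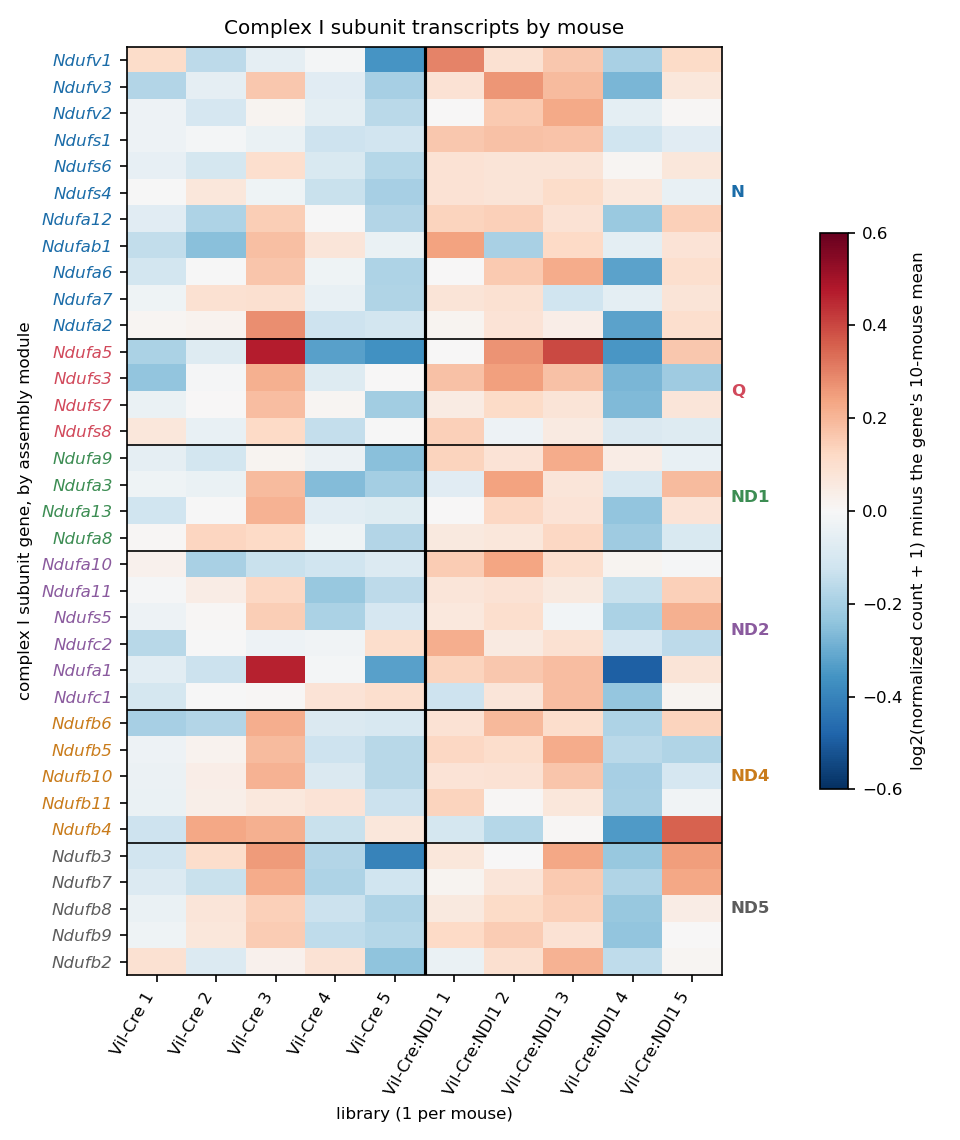
Log2(normalized count + 1) of each complex I subunit gene minus its mean over 10 mice (colour), with genes in rows by assembly module and mice in columns by genotype (line between them). Vil-Cre 3 and Vil-Cre:NDI1 1 to 3 are mostly above the mean, with 30 to 33 of 35 genes, and Vil-Cre:NDI1 5 has 24. Vil-Cre 5 and Vil-Cre:NDI1 4 are mostly below, with 4 each, as are Vil-Cre 1 and 4, with 6 and 5. Vil-Cre 2 has 14. These counts are on the scale of the size factors.

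The pattern by mouse, on the scale of the size factors, reached beyond complex I. The mitochondrially encoded complex I genes had medians of 0.32 in Vil-Cre 3, -0.25 in Vil-Cre 5, 0.23 in Vil-Cre:NDI1 3 and -0.27 in Vil-Cre:NDI1 4. Complexes II, III, IV and V were likewise above their means in Vil-Cre 3 (0.09 to 0.12) and below them in Vil-Cre 5 (-0.36 to -0.18) and Vil-Cre:NDI1 4 (-0.18 to -0.14). Assembly factors of complex I did not share it, with medians of -0.0025, 0.01 and 0.08 in these 3 mice. Enterocyte markers were at 0.20 in Vil-Cre 3, -0.54 in Vil-Cre 5 and -0.12 in Vil-Cre:NDI1 4. In the same order, tuft cell markers were at 0.98, 0.45 and -0.9995, B and plasma cell markers at -0.49, 2.19 and 0.02, T cell markers at 0.14, -0.32 and 0.72, adipocyte markers at 1.38, -1.15 and 1.07 and hepatocyte markers at 0.82, 1.34 and -0.83. The values were 0.09, 0.39 and 0.52 for Paneth cells, 0.09, 0.11 and 0.56 for stem and cycling cells, -0.14, 0.13 and 0.27 for goblet cells, and 0.31, -0.06 and 0.01 for enteroendocrine cells. Smooth muscle, endothelial and neuron and glia markers lay between -0.42 and 0.29 in these mice. Marker lists thus differed in which of the 3 mice they were high in. All points of 1 mouse come from the same library, and the part of the marker values in the pattern was not tested.

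**Figure D4:**
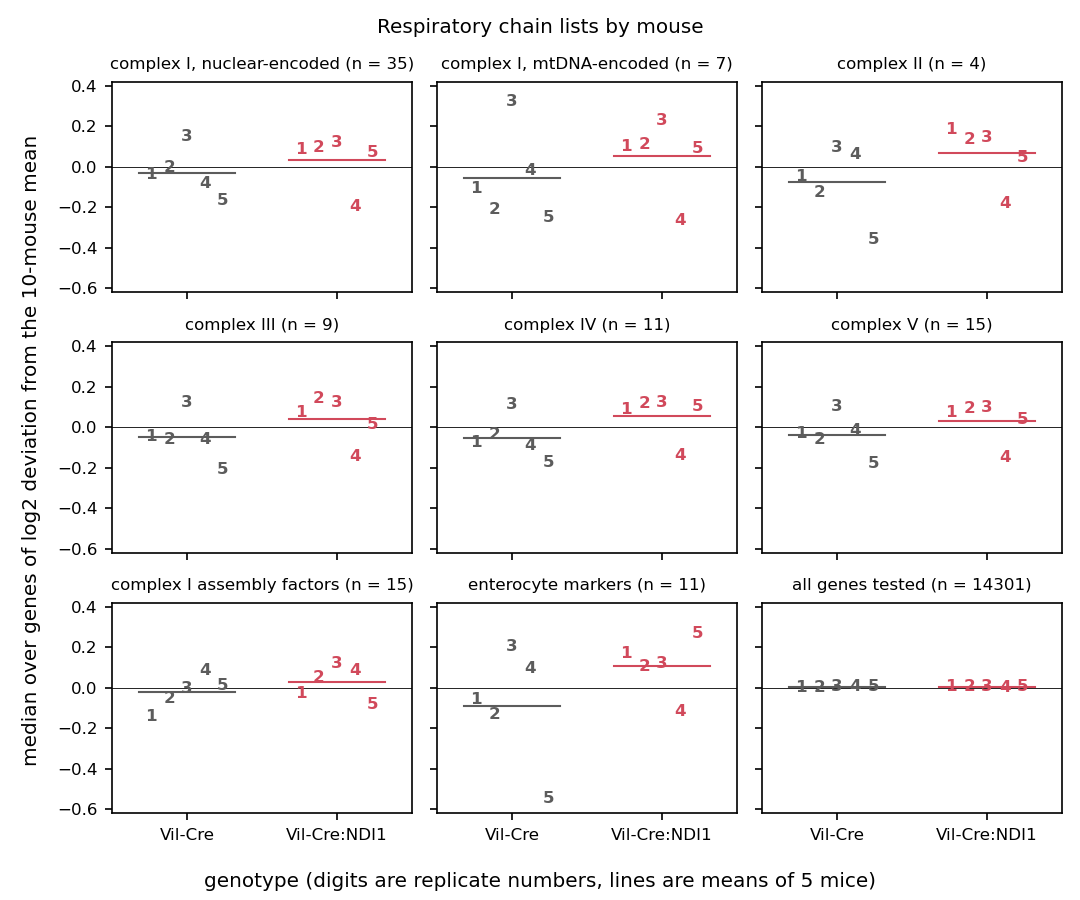
Median over the genes of each list of the log2 deviation from the 10-mouse mean, by genotype, with each mouse shown as its replicate number and the mean of 5 mice as a line. In every respiratory complex Vil-Cre 3 is above 0 and Vil-Cre 5 and Vil-Cre:NDI1 4 are below 0, while assembly factors do not show this order. The scaling of the libraries holds the median of all genes tested near 0.

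For single subunit genes the spread between mice was small. The SD over 10 mice on the log2 scale had a median of 0.14 and ran from 0.09 (Ndufs8) to 0.31 (Ndufa5). It was 0.29 over all genes tested and 0.18 over the 4294 genes with a mean level in the range of the 35. Complexes III, IV and V had like values (0.14, 0.15 and 0.13), complex II was at 0.19 and the mitochondrially encoded complex I genes 0.20.

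Near-identical copies hold the largest share of reads beside Ndufb4. Ndufb4 encodes a membrane-arm subunit of the ND4 module (chromosome 16, 37647170 to 37654453), and it was the lowest of the 35 fold changes. Its copy Ndufb4c (chromosome 15, 73809507 to 73809896), annotated as a processed pseudogene, is identical to the Ndufb4 transcript over 390 bases, and reads from either cannot be told apart there. Over the 10 libraries 3433 reads were given to Ndufb4 and 2195 to Ndufb4c. Ndufb4 was at 313, 401.6, 395.7, 311.4 and 358.4 normalized counts in Vil-Cre and at 317.6, 303.4, 343.7, 269.3 and 436.7 in Vil-Cre:NDI1 mice, a log2 fold change of -0.10 (interval -0.40 to 0.20, exact permutation p = 0.492). It was -0.20 without Vil-Cre:NDI1 5 and -0.03 without Vil-Cre:NDI1 4, and -0.06 without Vil-Cre 2 or Vil-Cre 3. Ndufb4c was at 221.5, 232, 189.3, 204.2 and 202 against 211.7, 257.8, 234.3, 215.4 and 218.3, a log2 difference of 0.12. Their sum was 566 ± 46.1 in Vil-Cre and 562 ± 63.1 in Vil-Cre:NDI1 mice (SD, n = 5 each), a log2 difference of -0.01 (exact permutation p = 0.881). Its SD over 10 mice was 0.13, against 0.22 for Ndufb4 alone.

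Ndufab1 has a second such partner, Gm4459 (chromosome 7, 139659688 to 139660155), with 99.8% identity over 468 bases and 1769 reads against 6956. Ndufab1 was at 623.3, 580, 783.4, 726 and 671.1 in Vil-Cre and at 816.5, 603.1, 750.4, 662 and 730.1 in Vil-Cre:NDI1 mice, and the groups overlap over most of their range. The log2 difference was 0.07 (exact permutation p = 0.492), and 0.11 for the sum with Gm4459 (exact permutation p = 0.302). For Ndufab1 alone it was 0.02 without Vil-Cre 2 or Vil-Cre:NDI1 1, 0.05 without Vil-Cre 1, and 0.13 without Vil-Cre 3 or Vil-Cre:NDI1 2. In all, 7 of the 35 genes had 8 such copies in the table at an identity of at least 95% over at least 150 bases, and the other 6 copies held between 0.112% and 1.88% of the reads of their gene. Exons of 13 of the 35 genes overlap a gene on the other strand and exons of 3 overlap one on the same strand, so their values may include reads of a neighbour.

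**Figure D5:**
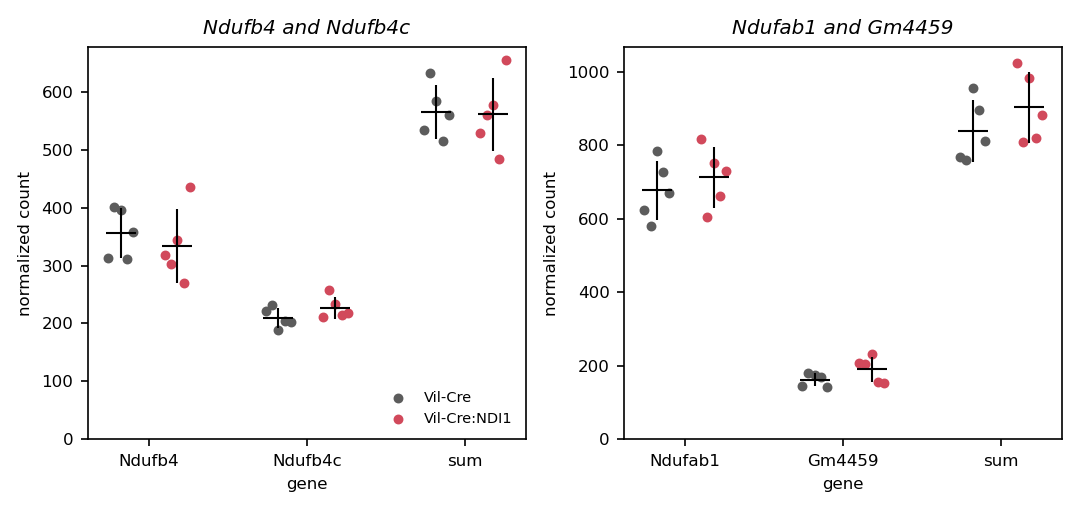
Normalized counts by mouse of Ndufb4 and Ndufab1, of their near-identical copies and of the sums, with the mean and SD of 5 mice per genotype in black. The sum of Ndufb4 and Ndufb4c has group means of 566 and 562.

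The promoters of the 35 genes were searched for short motifs of factors known to act on respiratory genes, since the genes moved together between mice. RefSeq windows (GRCm38.p6) from 250 bases before to 50 after the start were matched for 32 of the 35. The motif AAGATGGC, the core bound by YY1, was found on either strand in 7 of 32 (21.9%), against 3.19% of all 27025 genes with a window and 5.04% of 10302 genes tested. Its 7 matches lie 23 to 39 bases after the start, on the strand of the gene. In all 7 the ATG of the motif is the annotated start codon. A match over the start codon lies on that strand by necessity, and the window ends 50 bases after the start. Strand and place are thus not separate from the start codon. Of the 862 genes with the motif, 14.3% hold it on that strand and at those positions and 19.8% have their start codon in it. The windows of at most 30 bases around these matches are shown to let this be seen, with the motif in capitals, on the strand of the gene, in GRCm38.p6.
Ndufa3, chr7:3617384-3617413, plus strand: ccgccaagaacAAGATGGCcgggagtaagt
Ndufa9, chr6:126849097-126849126, minus strand: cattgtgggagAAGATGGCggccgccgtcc
Ndufb8, chr19:44555393-44555415, minus strand: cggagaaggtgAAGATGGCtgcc
Ndufc1, chr3:51408915-51408944, minus strand: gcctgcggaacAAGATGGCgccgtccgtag
Ndufs4, chr13:114388045-114388070, minus strand: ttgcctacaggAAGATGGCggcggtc
Ndufs6, chr13:73328433-73328460, minus strand: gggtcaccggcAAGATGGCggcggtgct
Ndufs7, chr10:80249462-80249491, plus strand: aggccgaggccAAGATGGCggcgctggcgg

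The 7 genes belong to the N module (Ndufs4 and Ndufs6), the Q module (Ndufs7), ND1 (Ndufa3 and Ndufa9), ND2 (Ndufc1) and ND5 (Ndufb8). Their log2 fold changes ran from -0.03 to 0.18 with a median of 0.12, where the 25 others with a window had a median of 0.06. Per kb of principal transcript their median was 1279 against 884, and their median SD between mice 0.13 against 0.15. These are descriptions over few genes, with no test. The other motifs were found in 3 to 15 of the 32 genes. NRF1 (GCATGCGC) was found in 3 of 32 (9.38%, against 3.05% of all genes with a window and 5.73% of genes tested), ERR (AAGGTCA) in 3 (9.38%, against 5.38% and 4.08%), ETS (CCGGAAG) in 4 (12.5%, against 9.93% and 19.0%), SP1 (GGGCGG) in 15 (46.9%, against 38.2% and 67.3%), the CCAAT box (CCAAT) in 10 (31.2%, against 41.1% and 42.5%) and the TATA box (TATAAA) in 4 (12.5%, against 15.7% and 9.11%). None of the 7 motifs contains another. Both strands were read, and a motif is only a run of letters, so these shares say nothing of binding in jejunum.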

How the data were processed

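The deposited table holds a signal per gene and library. Per the study's methods, the authors trimmed single-end reads (trimGalore), mapped them with STAR against GRCm38 to which NDI1 had been added, quantified genes with Salmon and used DESeq2 with a local dispersion model and Wald tests. The values behave as reads divided by 1 factor per library (0.8519 to 1.0976), which was read off here from the value of 1 read. Annotation release and strand of counting are not given in the sources used here. No per-sample column was left unused (0). Dividing by the value of 1 read gave whole numbers for 100% of the entries above 0 (tolerance 0.05), and these whole numbers are called reads here. They cannot tell observed reads from Salmon estimates that were rounded. For Vil-Cre 3 and Vil-Cre 4 the value of 1 read is so near 1 that rounding cannot be told apart from it. On these reads edgeR 4.0.16 called 1 gene and DESeq2 1.42.0 (local dispersion fit, these factors) called 24, of the 14256 genes to which it gave an adjusted p. No pair of replicates was close enough to be 1 library deposited again (mean chi-square of 12.1 to 56.3 a gene). Same-numbered mice did not deviate together over the genes tested, which cannot exclude a weaker pairing. How the numbers were given is not stated in the sources used here, and the main fit treats the mice as unpaired.

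For the genotype comparison, log2(value + 1) was fitted with limma 3.58.1 (R 4.3.3, eBayes with a trend in the variance). The 14301 genes tested reached 10 normalized counts in 5 or more mice, p-values were adjusted over all of them by Benjamini-Hochberg, and the threshold was 0.05. This scale understates changes of low genes. Exact permutation tests used the 252 ways to split 10 mice evenly, with a smallest possible p of 0.00794. Lengths, positions and overlaps come from GENCODE M21 (35 of 35 identifiers matched), copies from blastn 2.17.0 and promoter windows from RefSeq. The 35 genes, the lists and the motifs were chosen with earlier results of these data known. Values by mouse are given for the core subunits, the 5 highest and 5 lowest fold changes, genes under 0.05 in a test, and the 3 highest and 3 lowest levels per kb. The scripts were tested on simulated data.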

Additional observations from a re-analysis of the deposited data

Results flagged for a closer look

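In 9 of the 70 sets of 5 mice (35 genes in 2 genotypes) 1 mouse stood apart from the other 4 by more than Dixon's 95% critical value of 0.71, where chance gives about 1 in 20, or 3.5. The 9 come from only 2 mice. Vil-Cre:NDI1 4 was low in 6 genes: Ndufa1 at 580.7 normalized counts (the other 4 mice at 861.6 or more), Ndufa2 at 644.4 (815.5 or more), Ndufa12 at 668.9 (830.8 or more), Ndufb8 at 917.6 (1109 or more), Ndufs6 at 729.6 (759.5 or more) and Ndufs7 at 976.4 (1211 or more). Vil-Cre 3 was high in 3 genes: Ndufa5 at 950.7 (the others at 648.9 or less), Ndufb6 at 622.1 (504.5 or less) and Ndufb7 at 974.8 (788.7 or less). Genes of 1 mouse share its library and are not independent of each other.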

How the results depend on the processing

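Of the 35 subunit genes, 0 were called by limma, edgeR or DESeq2 in each of 22 alternatives, which were 2 pseudocounts (0.1 and 8), 2 filters, 2 scalings, 2 settings of limma, the count tests, the replicate block, 10 fits without 1 mouse, and 1 without both mice numbered 3, added after the data were seen. The replicate block called 0 of the 35 genes and 1 gene in all, left 30 of 35 higher (median 0.06) and changed no call. Same-numbered mice did not deviate together over the genes tested (correlations of deviations from -0.116 to 0.136), and whether the numbers stand for pairs is not known. The calls over all genes were 24 with DESeq2 (15 higher, 9 lower), 2 with array weights, with a minimum of 50 and without both mice numbered 3, and 1 to 3 with 1 mouse left out (3 without Vil-Cre:NDI1 5), against 1. With libraries rescaled to equal totals 18 of 35 genes were higher, beside 36.2% of all genes. With 1 mouse left out 25 to 34 of the 35 were higher, with medians of 0.04 to 0.12. The groups lay apart in 0 to 1 of 35 genes with 1 mouse left out (Ndufa9, Ndufa10 or Ndufs6) against 1.14% to 2.03% of all genes, and in 1 (Ndufs6) without both mice numbered 3, against 2.91%. The 95% intervals lay within 1.5-fold for 34 or 35 genes. The range of levels per kb was 22.0-fold with the longest transcript and 24.7- to 26.2-fold with 1 mouse left out.

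Of 21 genes named with values by mouse, 10 kept their direction throughout, and 37 of 462 alternative values turned sign, lying between -0.0616 and 0.0449, with none past a threshold (adjusted p from 0.316 to 1). Rescaled to equal totals, log2 fold changes were -0.0363 for Ndufa1, -0.0137 for Ndufb2, -0.0193 for Ndufb5, -0.0111 for Ndufb9, -0.0211 for Ndufs3, -0.0426 for Ndufs7 and -0.0616 for Ndufs8. Array weights gave 0.0165 for Ndufb11 and 0.0253 for Ndufc1, edgeR gave -0.0107 for Ndufs8, and leaving out both mice numbered 3 gave 0.0204 for Ndufa2. With 1 mouse left out, the ranges that cross 0 were -0.0515 to 0.152 for Ndufa1, -0.0665 to 0.0446 for Ndufa2, -0.0689 to 0.0284 for Ndufa8, -0.0372 to 0.0449 for Ndufb11, -0.0053 to 0.0935 for Ndufb2, -0.0067 to 0.0965 for Ndufb5, -0.0826 to 0.0217 for Ndufc1, -0.0143 to 0.116 for Ndufs3, -0.0296 to 0.0884 for Ndufs7 and -0.0352 to 0.0308 for Ndufs8. The causes were not tested. The lowest value of any of the 35 genes in a library was 269.3 normalized counts (Ndufb4 in Vil-Cre:NDI1 4).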
